A study of Arabidopsis thaliana with 40 samples.

Results

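Transcript levels in the shoot apex of Arabidopsis thaliana were compared between 2 accessions, Landsberg erecta (Ler) and Columbia wild type (Col-0, here Col), over the first days of the floral transition. The members were chosen by accession alone, from the sample titles: 8 Ler and 8 Col arrays, 16 of the 40 in the series. All plants grew at 21 °C for 30 days in short days (9 h light, 15 h dark) before they were moved to long days (16 h light, 8 h dark), which induces flowering. Apices were taken on days 0, 3, 5 and 7 after the move, with 2 arrays for each accession and day, and nothing in the labels says that these came from separate plants, so p-values reflect the spread of these samples alone, which may be technical. Ler carries, besides its own genome, the erecta mutation, which alters stem and organ shape. The other groups used were the mutants co-2, ft-2 and lfy-12, grown and sampled in the same way with 8 arrays each.

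Accessions are natural inbred lines that differ in sequence, in the genes they carry and in how strongly they express them. Ler and Col are known to differ in the genes that shape their glucosinolates, the sulfur-containing defence compounds of this plant family, and in many resistance genes of the NLR class, whose products sense pathogens. Glucosinolates of the aliphatic kind start from methionine, whose chain is lengthened, turned into the core structure and then modified at its side chain.

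Each array gave a log2 signal for 22746 probe sets besides controls. Array medians lay between 6.91 and 7.04 and lower quartiles between 4.66 and 4.85, while the medians of 15 probe sets for bacterial transcripts, which no plant RNA matches, lay between 3.58 and 3.70 and mark the background. Across probe sets, the correlation of replicate arrays was 0.990 to 0.997 (probe sets are not independent replicates), and the SD of the difference between replicates ran from 0.167 to 0.306 log2 units, highest for Ler day 0. The first principal component held 44.5% of the variance and separated all Ler arrays (-0.283 to -0.221) from all Col arrays (0.237 to 0.266). Of the apex markers, CLV3, a peptide made by the stem cells, read 5.23 to 6.15 and UFO, an F-box gene of floral meristems, 5.28 to 7.64. Both lay above the bacterial controls, which does not by itself show that a transcript is present. WUS, STM, CLV1, KNAT1, CUC1 and CUC2 were not analysed here, as the annotation lists no probe set for them.

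The comparison asks which transcript differences between the accessions persist while the apex moves to flowering. With day as a block, limma called 9164 of 22746 probe sets (40.3%) at an adjusted p under 0.05, 3960 higher in Ler (17.4%) and 5204 lower (22.9%). Calls above 2-fold were fewer, 626 in all (2.75%), with 189 higher in Ler (0.831%) and 437 lower (1.92%). The lower side was the more numerous at each size: 34 probe sets were more than 4-fold higher and 99 lower, 9 more than 8-fold higher and 32 lower, and 6 more than 16-fold higher and 10 lower. The balance of all calls depended on the scaling, since 43.2% were higher in Ler with the deposited values, 55.3% after quantile normalization (5111 higher, 4137 lower) and 54.5% after each array was centred on its median (4856 and 4054). Over all alternatives, the probe sets more than 2-fold apart numbered 182 to 229 higher and 406 to 448 lower. The probes of this array type are known to have been designed on the Columbia sequence, so a lower Ler signal from a mismatch under the probes and one from less transcript cannot be told apart here. Nor can fewer cells of a type and less RNA per cell.

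**Figure D1:**
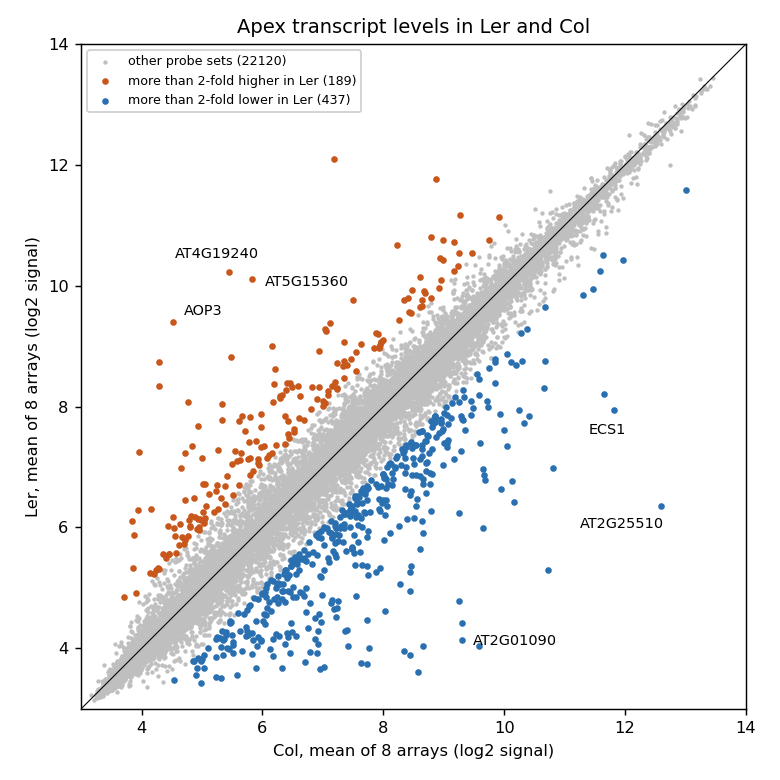
Mean log2 signal over the 8 Col arrays (x axis) and the 8 Ler arrays (y axis), 1 point per probe set, with the line of equal level. The 189 probe sets more than 2-fold higher in Ler are orange and the 437 lower are blue; the lower group reaches further from the line, down to AT2G25510.

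Genes were ranked among probe sets that list 1 gene. Of the 626 probe sets more than 2-fold apart, 226 list no gene and 25 list several, and these were not ranked. The 15 genes with the largest signal deficit in Ler differed by 3.33 to 6.23 log2 units, from 10.1-fold to 75.2-fold. They were chosen among genes whose Ler and Col arrays do not overlap, so nothing is read from that separation (6.98% of all probe sets had all Ler arrays below all Col arrays). The first in size was AT2G25510, whose Col arrays read 12.51 to 12.64 with a median of 12.59, near the top of the scale. Its Ler arrays read 5.23 to 9.78 with a median of 5.69, and the value of 9.78 came from Ler day 0 replicate 1 alone, the next highest being 7.01. The difference was -6.23 ± 0.46 log2 units (SE, n = 8 arrays per accession; limma adjusted p = 8.71e-09), and -6.74 without that array.

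AT2G01090 encodes a hinge protein of the ubiquinol-cytochrome c reductase, a complex of mitochondrial respiration. Its Ler arrays read 3.80 to 4.65 (median 4.14) and its Col arrays 9.11 to 9.47 (median 9.30), a difference of -5.16 ± 0.10. The Ler arrays thus sat under the lower quartile of the arrays and the Col arrays well above the median. A similar step was seen for AT5G45500, of a leucine-rich repeat family, with Ler at 4.07 to 4.65 (median 4.46), Col at 9.06 to 9.58 (median 9.33) and a difference of -4.88 ± 0.08. AT3G43740, another leucine-rich repeat gene (-4.62 ± 0.08), and AT4G21650, a subtilisin-like protease gene (-4.55 ± 0.11), followed. AT5G55790 read 3.64 to 3.85 in Ler (median 3.74) and 7.66 to 7.81 in Col (median 7.73), which put every Ler array near the background level.

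ECS1 (AT1G31580), a cell wall protein gene, was lower in Ler by another pattern, because its transcript remained well measured there. Its Ler arrays read 7.68 to 8.42 (median 7.86) and its Col arrays 11.71 to 11.95 (median 11.79), a 14.6-fold difference of -3.87 ± 0.07. AT1G65370, which encodes a TRAF-like (MATH domain) protein, also remained measured in Ler, with a median of 7.13 against 10.82 in Col (-3.81 ± 0.08). LUL1 (AT5G03200), a RING ubiquitin ligase gene, had a median of 3.98 against 7.77 (-3.76 ± 0.06). 2A6 (AT1G03410), a dioxygenase gene, had a median of 6.69 against 10.12 (-3.36 ± 0.08). The other 5 of the 15 were AT3G44430, AT5G56380 of the F-box family, AT3G61010, AT5G20450 and AT3G16750, between -4.47 and -3.33. On 8 of the 15 every Ler array was under its own lower quartile. Over all probe sets, 11 had every Ler array under the lower quartile and every Col array above the median, and 3 had the reverse.

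Among genes higher in Ler, AOP3 (AT4G03050) came first. It encodes a dioxygenase that converts glucosinolate side chains to the hydroxyalkyl form, a step for which Ler is known and Col is not. Its Col arrays read 4.32 to 4.65 (median 4.51) and its Ler arrays 7.82 to 11.25 (median 9.26), a 29.4-fold difference of 4.88 ± 0.33 (limma adjusted p = 2.62e-09). All Col arrays lay under the lower quartile of the arrays, and the wide Ler range followed the days, as described below. The genes higher in Ler were chosen in the same way, and the share of all probe sets with every Ler array above every Col array was 3.2%.

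AT4G19240 and AT5G15360 varied little within each accession. AT4G19240 read 9.89 to 10.42 in Ler (median 10.28) and 5.28 to 5.66 in Col (median 5.43), a difference of 4.78 ± 0.07. AT5G15360 read 9.80 to 10.34 (median 10.16) and 5.61 to 6.02 (median 5.88), a difference of 4.29 ± 0.08. Both carry only a locus identifier in the annotation used here, and in neither did an array of one accession come within 3 log2 units of the other. AT1G50290 read 7.97 to 8.59 in Ler and 3.94 to 4.66 in Col (4.05 ± 0.08). AT3G44070, of a glycosyl hydrolase family, had medians of 8.78 and 5.47 (3.34 ± 0.07), and AT3G29970, which encodes a B12D-family protein, 9.05 and 6.28 (2.84 ± 0.17). AT1G27570, of the phosphatidylinositol kinase family, had medians of 7.65 and 4.91 (2.75 ± 0.07), and AT2G21130, a cyclophilin gene, 10.74 and 8.31 (2.44 ± 0.13). The remaining 7 were AT4G31570, AT5G02230 (a hydrolase gene), AT1G62510 (a lipid-transfer-like protein gene), AT3G48640, AT4G18975 (a pentatricopeptide repeat gene), AT2G13750 (listed as a transposon) and AT5G32460 (of the B3 transcription factor family), between 2.27 and 3.32. None of 810 recomputed values of the 30 genes, over 27 alternatives each, lost its call or changed direction. The alternatives reuse the arrays on which these genes were chosen as the largest, so this shows only that the processing did not decide their calls.

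**Figure D2:**
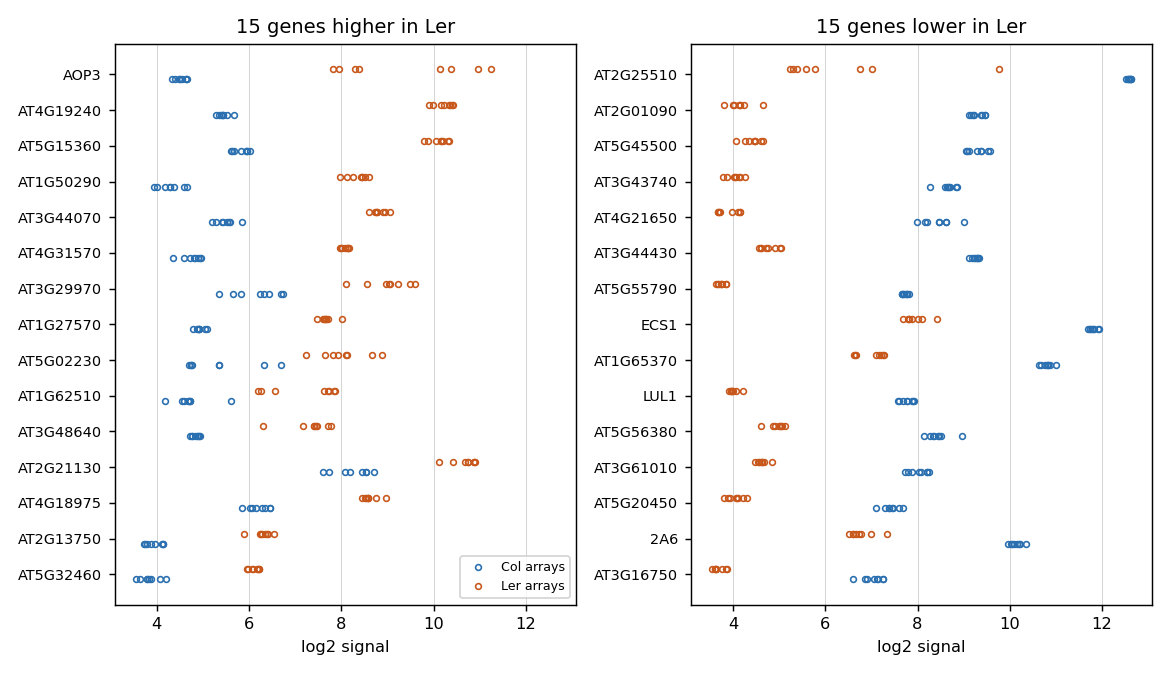
Log2 signal on each of the 16 arrays (x axis) for the 15 genes with the largest difference higher in Ler (left) and lower in Ler (right); orange circles are Ler arrays and blue circles Col arrays. The accessions do not overlap in any row, as the choice of genes required, and the Ler value of AT2G25510 at 9.78 stands apart from the other Ler arrays.

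Most large differences were present on each day. The single-day tests called 20.3% of probe sets on day 0, 18.7% on day 3, 18.3% on day 5 and 16.6% on day 7, and 1750 (584 higher and 1166 lower in Ler, 7.69% of those tested) were called the same way on all 4 days. Of the 626 probe sets more than 2-fold apart, 623 had the same sign on all days and 566 (90.4%) were called the same way on each, 157 of 189 higher and 409 of 437 lower. The 2 accessions did not overlap on the 16 arrays for 512 of the 626 (10.2% of all probe sets did not). The count of 566 became 541 to 578 with any 1 array left out. The single-day totals were less firm. Day 0, with 4618, fell to 3040 without Col day 0 replicate 2, and day 3, with 4243, to 2588 without Col day 3 replicate 2. Day 5, with 4167, fell to 2445 when Ler replicate 1 of that day was left out, to 2553 for Col replicate 1 and to 2745 for Col replicate 2. Day 7, with 3779, fell to 2487 when Col replicate 1 of that day was left out, to 2504 for Ler replicate 1 and to 2485 for Ler replicate 2. All 30 genes above were called the same way on all 4 days. The 626 probe sets and the 30 genes were chosen on these same arrays, so their counts here largely follow from that choice and are not separate support.

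The same contrast could be measured on other arrays, since co-2 and ft-2 are known as Landsberg alleles and lfy-12 as a Columbia allele, although the labels do not state it. LFY gives young primordia a floral fate, CO links day length to flowering and FT is the mobile flowering signal, so these mutants differ in flowering as well as in background. On 3 of the 24 mutant arrays, transcripts that separate Ler from Col appeared at a median share of the other background's level of 3.39% on replicate 1 of ft-2 at day 0, 5.03% on replicate 1 of co-2 at day 3 and 7.84% on replicate 2 of lfy-12 at day 5, where the other 21 arrays read -0.761% to 0.622% and the 16 Ler and Col arrays -0.373% to 0.301%. The mean of co-2 and ft-2 minus lfy-12 was called for 9119 probe sets (40.1%), 5739 higher (25.2%) and 3380 lower (14.9%), with a median of 0.04 over all probe sets against -0.02 for Ler minus Col. Of the 626 probe sets more than 2-fold apart in Ler and Col, 601 (96.0%) were called the same way in the mutants, 597 without those 3 arrays, and 3 were called the other way. Their median size was 1.37 log2 units in Ler and Col, where they were chosen for their size, and 1.11 in the mutants. Counted from both sides, 363 were more than 2-fold apart the same way in both contrasts, 58.0% of the 626 and 77.6% of the 468 in the mutants.

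All 30 named genes were called the same way in the mutants, from -6.40 to -2.41 for the lower and 0.84 to 5.07 for the higher. Of all probe sets, 14.9% were called lower there and 25.2% higher. AOP3 differed by 5.07 ± 0.25 there and AT2G25510 by -6.40 ± 0.60. The difference between the contrasts, tested on all 40 arrays, was called for 12.8% of all probe sets and for 269 of the 626 more than 2-fold apart. These were 42 of the 189 higher in Ler and 227 of the 437 lower. The 626 were chosen for a large difference between Ler and Col, which is 1 side of this test. That choice alone favours a larger size there than in the mutants, so no general loss of size is read from these counts. The test was not repeated without the 3 mutant arrays with transcripts of the other background. Among the named genes, chosen in the same way, the difference between the contrasts was called for 11 of the 15 lower and for 2 of the 15 higher. ECS1 was among the 11, at -3.87 in Ler and Col and -2.71 ± 0.12 in the mutants (difference -1.16 ± 0.19, adjusted p = 4.1e-05). AT5G32460 was 2.27 higher in Ler than in Col and 0.84 ± 0.07 higher in the mutants (1.43 ± 0.11, adjusted p = 1.6e-12), and AT1G27570 was 2.75 and 1.54 ± 0.09 higher (1.20 ± 0.11, adjusted p = 1.1e-10).

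A few probe sets are described whose difference was not called or was reversed in the mutants. They were chosen after their values were seen. The probe set 254452_at, with no gene listed, read 3.66 to 4.96 on the Ler arrays (median 3.78) and 7.97 to 8.56 on the Col arrays (median 8.34). It differed by -4.39 ± 0.15 between Ler and Col but by 0.03 ± 0.04 in the mutants (adjusted p = 0.65), and the arrays of the 3 mutants read 8.01 to 8.43, so the Ler arrays alone were low. AT3G05170, of the phosphoglycerate mutase family, was at 6.08 to 6.45 in Ler and 3.99 to 4.51 in Col (2.14 ± 0.07), against 0.18 ± 0.08 in the mutants (adjusted p = 0.0756). Here the Col arrays stood apart, since the mean was 6.25 over co-2 and ft-2 and 6.07 over lfy-12, both close to Ler. The test of the difference gave 1.96 ± 0.12 (adjusted p = 1.9e-15). AT5G02160 was lower in Ler (-1.03 ± 0.08) and higher in the Landsberg-background mutants by 0.23 ± 0.06 (adjusted p = 0.00531), with means of 8.28 in Ler, 8.56 over co-2 and ft-2, 8.33 in lfy-12 and 9.31 in Col, so Col again was the group apart.

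**Figure D3:**
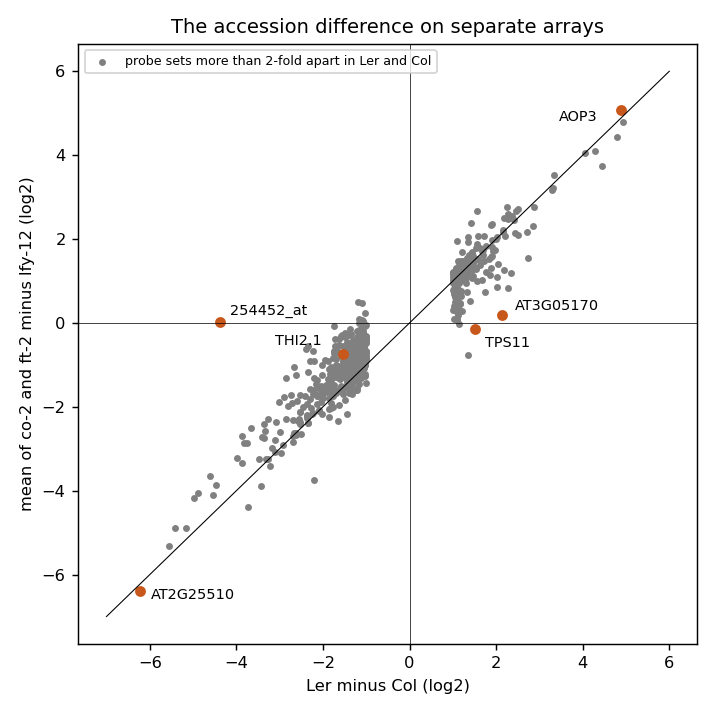
Difference between Ler and Col (x axis) and between the mean of co-2 and ft-2 and lfy-12 (y axis), both in log2 units, for the 626 probe sets more than 2-fold apart in Ler and Col, with the line of equal difference. Many points lie near the line, AOP3 and AT2G25510 among them, while 254452_at, AT3G05170 and TPS11 lie near 0 on the y axis. The difference between the contrasts was called for 269 of the 626.

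Aliphatic glucosinolate synthesis was the list with the largest median shift among those with more than 3 measured members. A list gene counts as measured where the annotation gives it a probe set that lists it alone. For 8730 tested probe sets no gene is listed, so the array may carry list genes that are not counted here. Of the 33 genes of this list 7 were measured, 5 higher in Ler (17.4% of all probe sets), 1 lower (22.9%) and 1 not called. The median was 0.94 log2 units against -0.02 over all probe sets. BCAT4 (AT3G19710), the aminotransferase that starts methionine chain elongation, read 7.66 to 12.94 in Ler (median 11.41) and 5.40 to 11.48 in Col (median 9.24). The pooled ranges overlap, and the transcript declined over the days in both accessions, with Ler higher on each day, by 1.30, 2.59, 2.18 and 1.99 on days 0, 3, 5 and 7, and by 2.02 ± 0.22 in all (adjusted p = 1.13e-06).

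The glucosyltransferase genes of core synthesis were both higher in Ler, UGT74B1 (AT1G24100) by 1.01 ± 0.11 and UGT74C1 (AT2G31790) by 0.94 ± 0.14. AOP1 (AT4G03070), a relative of AOP3, was higher by 0.56 ± 0.06, with Ler at 7.85 to 8.23 and Col at 7.03 to 7.81. GSL-OH (AT2G25450), a dioxygenase that hydroxylates butenyl glucosinolates, was the member that was lower, with Ler at 4.67 to 5.53 (median 4.83) and Col at 5.07 to 8.59 (median 6.25). Its difference was -1.53 ± 0.24 in all and shrank from -2.92 on day 0 to -0.45 on day 7 as the Col level declined towards that of Ler. GSTU20 (AT1G78370), a glutathione transferase linked to the pathway, stood at 0.17 ± 0.08 (adjusted p = 0.109) and was 0.89 ± 0.06 in the mutants. In the mutants 6 of the 7 were higher (25.2% of all probe sets) and GSL-OH was lower (-1.70 ± 0.28, against 14.9% of all probe sets), with a median of 1.02. From the breakdown list 1 of 15 genes was measured, PYK10 (AT3G09260), a beta-glucosidase of endoplasmic reticulum bodies, which was higher in Ler by 0.92 ± 0.15.

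Flavonoid and anthocyanin genes, which make the pigments and sunscreens of the epidermis, formed the other list that was mostly higher in Ler. Of 21 genes 6 were measured, 5 higher (17.4% of all probe sets) and 1 lower (22.9%), with a median of 0.78. In the mutants 5 were higher (25.2% of all probe sets) and 1 lower (14.9%), with a median of 1.20. DFR (AT5G42800), the reductase that commits the pathway to anthocyanins, read 8.70 to 11.39 in Ler (median 10.71) and 8.46 to 10.01 in Col (median 9.50), a difference of 0.98 ± 0.16. Within days it fell from 1.67 on day 0 to 0.10 on day 7, so the accessions ended at nearly the same level. UGT75C1 (1.18 ± 0.12) and UF3GT (1.15 ± 0.09), which add sugars to anthocyanins, and 5MAT (0.57 ± 0.10), which adds a malonyl group, were higher. UGT78D2, a flavonoid glucosyltransferase gene, was higher by 0.30 ± 0.08, a call lost without day 0 (0.18, adjusted p = 0.0994) or day 3 (0.27, adjusted p = 0.0624). UGT78D1, which adds rhamnose to flavonols, was lower (-0.23 ± 0.05).

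**Figure D4:**
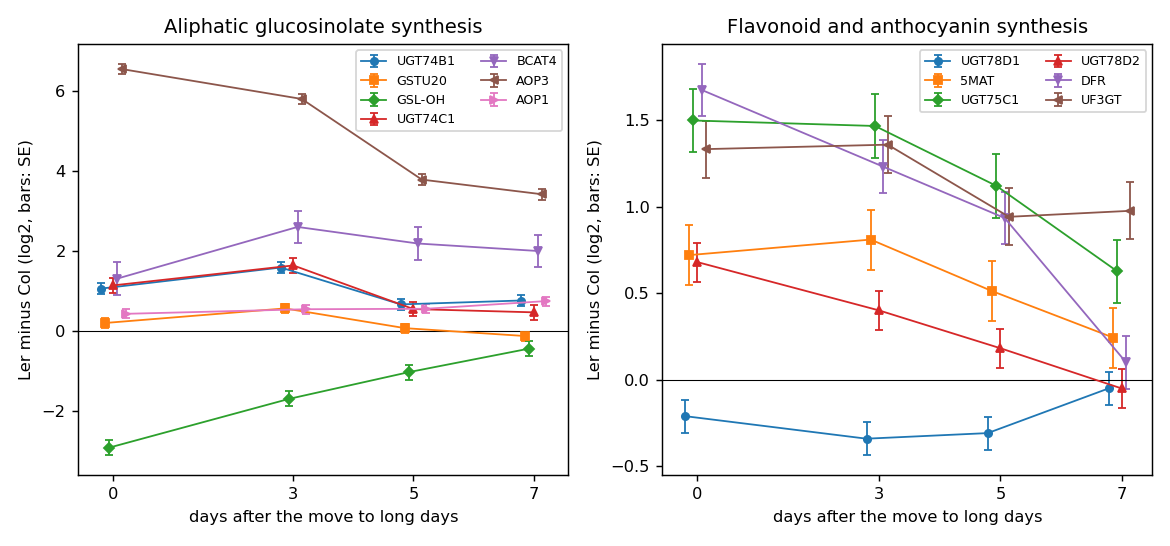
Ler minus Col in log2 units (y axis; bars are limma standard errors, 2 arrays per accession and day) on days 0, 3, 5 and 7 (x axis) for the 7 measured genes of aliphatic glucosinolate synthesis (left) and the 6 of the flavonoid list (right). AOP3 starts at 6.54 and ends at 3.41, GSL-OH moves from -2.92 to -0.45, and DFR from 1.67 to 0.10.

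The NLR list showed no common direction. Of 29 genes 4 were measured, with LOV1 higher, CSA1 and SOC3 lower and TN2 not called. Of all probe sets, 17.4% were higher and 22.9% lower, and these shares apply to the lists below too. With so few genes measured, no shift of a list is read from its counts. CSA1 (AT5G17880), a TIR-type NLR gene linked to defence and light responses, read 4.59 to 5.04 in Ler (median 4.88) and 7.09 to 7.92 in Col (median 7.63), a 6.43-fold difference of -2.68 ± 0.12 that was -2.84 ± 0.09 in the mutants. LOV1, an NLR gene known for sensitivity to a fungal toxin, was higher by 0.66 ± 0.07 with no overlap between arrays. SOC3 was lower (-0.24 ± 0.07), a call lost without day 0 (adjusted p = 0.0697) or day 5 (adjusted p = 0.0926).

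In the salicylate and jasmonate list 4 of 23 genes were measured, 2 higher (17.4% of all probe sets), 1 lower (22.9%) and 1 not called. THI2.1 (AT1G72260), a thionin gene induced by jasmonate, read 5.51 to 8.64 in Ler (median 8.10) and 8.25 to 10.26 in Col (median 9.35), and was lower in Ler (-1.53 ± 0.19). In the mutants it stood at -0.75 ± 0.39 (adjusted p = 0.138). GRXC9, a glutaredoxin gene induced by salicylate, was higher by 0.88 ± 0.14. SAG101, a lipase-like partner in immune signalling, was higher by 0.22 ± 0.07, a call lost without day 0, day 3 or day 5 (adjusted p = 0.0743, 0.0986 and 0.141). PDF1.2, a defensin gene, stood at -0.12 ± 0.08 (adjusted p = 0.275).

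Genes that act in flowering itself were measured only in part, and nothing is read for the others. In the list of floral promoters and meristem identity genes 7 of 21 were measured, 3 higher in Ler (17.4% of all probe sets) and 4 not called, with a median of 0.16. AGL42 (AT5G62165), a MADS-box gene of the SOC1 group, read 6.60 to 8.67 in Ler (median 7.99) and 6.11 to 8.06 in Col (median 7.06), a difference of 0.75 ± 0.08. UFO was higher by 0.74 ± 0.13, with 1.48 on day 5, and SPL16, an SBP-box gene, by 0.25 ± 0.05. GI (0.15), AGL24 (-0.02), FD (0.16) and PUCHI (-0.12) were not called (adjusted p = 0.142, 0.811, 0.0962 and 0.516). In the mutants AGL42 stood at -0.01 ± 0.11 and UFO at 0.05 ± 0.09, and the difference between the contrasts was called for both (AGL42 0.76 ± 0.15, adjusted p = 0.00037; UFO 0.69 ± 0.22, adjusted p = 0.028). Of 22 floral repressors 3 were measured. SMZ, an AP2-like repressor, was higher in Ler by 0.49 ± 0.09 and by 0.79 ± 0.09 in the mutants, while SNZ (0.14) and ATC (0.10) were not called (adjusted p = 0.44 and 0.181). GI was also the 1 measured member of 18 clock genes.

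Of the list on ERECTA signalling, the meristem and organ polarity, 4 of 30 genes were measured, and ERECTA itself was not analysed here. YAB3, of organ polarity, was lower (-0.20 ± 0.04), and PHV, a HD-ZIP gene of the upper leaf side, was higher by 0.14 ± 0.05 (adjusted p = 0.0419), a call lost under 16 of its 27 alternatives. CLV3 (-0.14 ± 0.10, adjusted p = 0.306) and YUC4, an auxin synthesis gene (0.13 ± 0.08, adjusted p = 0.192), were not called.

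In the terpene list 3 of 14 genes were measured. TPS11 (AT5G44630), a sesquiterpene synthase gene of flowers, read 5.13 to 10.40 in Ler (median 8.71) and 4.27 to 9.10 in Col (median 6.90), and was higher in Ler by 1.50 ± 0.14. In the mutants it stood at -0.14 ± 0.16, and the difference between the contrasts was 1.65 ± 0.34 (adjusted p = 0.00071). TPS23 and TPS24 were lower in Ler (-0.24 and -0.20) but read at most 4.36 on the Ler and Col arrays, near the background, and the TPS24 call was lost under 16 of its 27 alternatives, among them quantile normalization (adjusted p = 0.105). In the cold list 4 of 12 genes were measured, COR15A (-0.46 ± 0.10) and COR15B (-0.78 ± 0.24) lower (22.9% of all probe sets) and COR47 (0.17) and LTI30 (0.26) not called (adjusted p = 0.483 and 0.13). The COR15B call was lost without day 3 (-0.65, adjusted p = 0.0552), and no single day called it (adjusted p = 0.111 to 0.688). In the mutants none was called lower. COR47 (0.58 ± 0.13) and LTI30 (0.78 ± 0.15) were called higher there, and COR15A (0.22 ± 0.10) and COR15B (0.04 ± 0.19) were not called (adjusted p = 0.0919 and 0.886). The difference between the contrasts was called for COR15A (-0.68 ± 0.15, adjusted p = 0.0017).

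Markers of other tissues were read beside these results. Of 20 nuclear photosynthesis genes, markers of leaf tissue, 4 were measured. LHCB4.3 was higher in Ler by 0.68 ± 0.07, LHCB4.2 lower (-0.87 ± 0.14) and LHCB4.1 lower (-0.19 ± 0.07), a call lost under 13 of its 27 alternatives, among them quantile normalization (adjusted p = 0.143). In the mutants LHCB4.3 stood at 0.17 ± 0.09 (adjusted p = 0.155), LHCB4.2 at -0.57 ± 0.10 and LHCB4.1 at 0.02 ± 0.04 (adjusted p = 0.714). The difference between the contrasts was called for LHCB4.3 (0.51 ± 0.16, adjusted p = 0.0259). RCA, the Rubisco activase, stood at 0.01 ± 0.19, with Ler at 10.68 to 12.76 and Col at 10.72 to 12.10. Of the plastid genome 69 genes were measured, and 4 were higher (17.4% of all probe sets), 1 was lower (22.9%) and 64 were not called. Their median was -0.01, with a range from -0.45 to 0.56. Of 9 epidermis genes 2 were measured, TRY (-0.23 ± 0.07) and FAMA (-0.27 ± 0.11, adjusted p = 0.0543), and of 11 floral organ genes 1, SPL/NZZ (0.00 ± 0.09, adjusted p = 0.975). The TRY call was lost without day 5 (adjusted p = 0.0575). No vascular or cell division gene of the lists had a probe set that lists it alone in the annotation, so none was analysed. The part of tissue composition in the differences above was not tested. Over all lists, 50 of 295 genes were measured, with 21 higher (17.4% of all probe sets), 13 lower (22.9%) and 16 not called.

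Large differences on the lower side also occurred in genes next to each other. In the RefSeq order, 5813 pairs of adjacent genes were both measured. The first gene was more than 2-fold lower in Ler in 106 pairs, and in 8 of these (7.55%) so was the next gene, where 1.99% of 13211 measured nuclear genes (263) were that much lower. On the higher side this held for 0 of 38 pairs, with 0.780% of genes (103). Several of the 8 pairs belong to 1 gene family each, and signal shared between near copies was not tested. AT4G19500 (-3.22 ± 0.07) and AT4G19510 (-1.46 ± 0.08) are NLR genes of the TIR type, AT2G43600 (-1.42 ± 0.17) and AT2G43610 (-3.08 ± 0.12) chitinase genes, and AT5G45500 and AT5G45510 (-1.89 ± 0.06) leucine-rich repeat genes. AT5G56370 (-1.75 ± 0.12) and AT5G56380 (-3.48 ± 0.09) are F-box genes, and AT5G59670 (-1.37 ± 0.15) and AT5G59680 (-1.01 ± 0.13) receptor kinase genes. AT3G28940 (-1.49 ± 0.07) and AT3G28950 (-1.45 ± 0.09) are AIG2-like, AT5G19110 (-1.44 ± 0.12) and AT5G19120 (-1.12 ± 0.06) aspartyl protease genes, and the last pair was AT1G31430 and AT1G31440 (-1.05 ± 0.06 and -1.35 ± 0.07). All 16 of these genes were also called lower in the mutants, where 14.9% of all probe sets were.

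The accession difference itself changed between days for a small number of probe sets. The interaction of accession and day was called for 298 probe sets (1.31%), 197 of which were also called between the accessions, and for 62 of the 626 probe sets more than 2-fold apart (9.90%), 35 of 189 higher and 27 of 437 lower. The total moved with single arrays. It was 175 or 162 when Col replicate 1 or 2 of day 0 was left out, and 133 or 169 for Col replicate 1 or 2 of day 7. It was 194 for Ler replicate 1 of day 5, 164 or 157 for Ler replicate 1 or 2 of day 7, and 1214 for Ler replicate 2 of day 0. The 8 genes with the largest F are described here by group means of 2 arrays on days 0, 3, 5 and 7.

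AOP3 declined in Ler from 11.11 to 10.26, 8.33 and 7.88, while Col stayed between 4.47 and 4.57 (adjusted p = 2.44e-06). AT4G26280, of the sulfotransferase family, went from 5.00 to 6.83, 7.05 and 6.98 in Ler and lay between 4.55 and 5.01 in Col (adjusted p = 0.000431). The accessions thus drew nearer for AOP3 and moved apart for AT4G26280, which was 1.74 ± 0.20 higher in Ler over all days.

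In another group the largest difference fell on day 7. AT5G22430, of a pollen allergen family, read 4.39, 4.37, 4.78 and 8.87 in Ler and 4.28, 4.32, 4.62 and 5.82 in Col (adjusted p = 2.87e-05). AT2G20870, a cell wall protein gene, read 5.08, 5.42, 5.46 and 8.64 in Ler and 5.17, 5.99, 6.35 and 6.40 in Col (adjusted p = 0.000371). AT3G53980, a lipid-transfer-like gene, went from 7.80 to 7.98 in Ler with a low of 6.38 on day 5, and from 8.59 down to 6.20 in Col (adjusted p = 0.000371). In all 3 the Ler day 7 level was the higher, by 3.04, 2.24 and 1.77. Before that, AT3G53980 was lower in Ler on days 0, 3 and 5 (-0.78, -0.63 and -0.88, limma adjusted p = 0.0107, 0.0379 and 0.00554). AT2G20870 was lower in Ler on day 5 (-0.88, adjusted p = 0.011). For these genes the difference changed its sign, while AT5G22430 was not called on the earlier days.

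The opposite step was seen for the peroxidase genes AT5G58390 and AT3G21770 and for AT1G19960. AT5G58390 went from 9.06 on day 0 to 5.52 on day 7 in Ler and from 7.53 to 6.68 in Col (adjusted p = 4.61e-05), and its difference turned from 1.53 to -1.16. AT3G21770 went from 7.89 to 6.48 in Ler and from 8.28 to 8.43 in Col (adjusted p = 0.000158). AT1G19960 went from 9.71 to 6.68 in Ler and from 9.54 to 7.78 in Col (adjusted p = 2.87e-05). Over all days AT1G19960 (-0.05), AT5G58390 (0.44), AT3G53980 (-0.13) and AT2G20870 (0.17) were not called between the accessions (adjusted p = 0.855, 0.189, 0.758 and 0.701). The pooled AT5G22430 difference of 0.84 ± 0.32 (adjusted p = 0.0469) was 0.11 without day 7 (adjusted p = 0.159), and its call was also lost without any 1 of the 4 day 7 arrays (0.58 to 0.70).

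**Figure D5:**
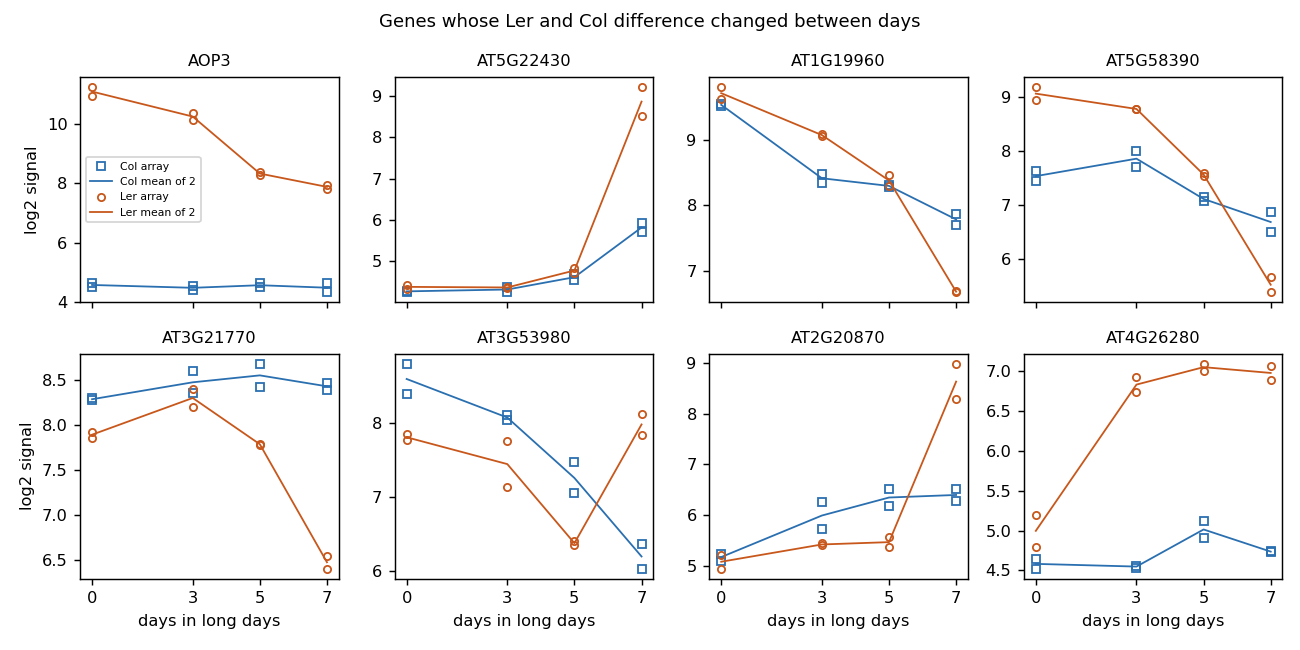
Log2 signal (y axis, scaled for each gene) on days 0, 3, 5 and 7 in long days (x axis) for the 8 genes with the largest interaction of accession and day; orange circles are Ler arrays, blue squares Col arrays, and lines join the means of 2. AOP3 declines in Ler alone, AT5G22430 and AT2G20870 stand highest in Ler on day 7, and AT4G26280 is higher in Ler from day 3.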

How the data were processed

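The values deposited by the authors were read as log2 signal (3.03 to 13.63), since on a natural log scale the top value would stand for 834443, above the limit of a 16-bit scanner (65535). Their normalization is not given in the sources used here. They were used as deposited, and 64 control probe sets were left out. Of the 22746 tested, 13513 (59.4%) list 1 gene in the platform annotation, 503 several and 8730 none. RefSeq gave names and gene order only.

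Groups came from the sample titles. The accessions were compared with limma 3.58.1 in R 4.3.3, with day as a block (11 residual degrees of freedom), empirical Bayes with an intensity trend, two-sided, Benjamini-Hochberg adjusted over all tested probe sets. The interaction and single days came from 8 group means (8 residual degrees of freedom). All errors are limma standard errors. Named were the 15 genes with the largest called difference in each direction without overlap between arrays, the 8 with the largest interaction F, and all measured members of 16 lists and of the plastid genome. For a gene with several probe sets, the one with the highest mean was used. The members and lists were chosen with earlier results of these data known, and the test between the contrasts was added after the data were seen. The number of arrays limits the precision.

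Replicate numbers were checked for pairing: the replicate deviations of Col and Ler correlated at 0.343, 0.050, -0.024 and -0.133 on days 0, 3, 5 and 7. The labels state no pairing and none was assumed, although same-numbered arrays of day 0 deviated partly together. Results with a replicate block are given below. Tested on simulated data over 22746 probe sets, the accession test found 65 of 67 differences sized 0.5 log2 units, all 67 sized 1 and all 66 sized 2, with 6 of 204 calls false (2.94%). The simulated difference was the same on each day, without scatter between days, so fewer may be found in the data. The interaction test, with the change placed on day 7 alone, found 8 of 67, 52 of 67 and all 66, with 5 of 131 false (3.82%). The simulated noise was independent between probe sets and arrays, and few probe sets were changed, where 40.3% were called in the data. These false shares therefore need not hold for the calls above. Alternatives changed the normalization, scaling, filter, moderation, samples and blocks.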

Additional observations from a re-analysis of the deposited data

Results flagged for a closer look

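The accession difference changed between days, by limma's test of the interaction itself, for 14 of the genes described. In AOP3 (adjusted p = 2.44e-06) it shrank from 6.54 log2 units on day 0 to 3.41 on day 7. AT3G29970 (adjusted p = 0.0134) went from 3.51 to 1.82, and AT2G21130 (adjusted p = 0.00161) from 1.78 to 2.27 with its highest value, 3.08, on day 5. AT5G22430 (adjusted p = 2.87e-05) stood at 0.11 and 3.04 on days 0 and 7, AT2G20870 (adjusted p = 0.000371) at -0.09 and 2.24, AT3G53980 (adjusted p = 0.000371) at -0.78 and 1.77, and AT4G26280 (adjusted p = 0.000431) at 0.41 and 2.24. AT1G19960 (adjusted p = 2.87e-05) went from 0.18 to -1.10, AT5G58390 (adjusted p = 4.61e-05) from 1.53 to -1.16 and AT3G21770 (adjusted p = 0.000158) from -0.39 to -1.95. Among the list members, DFR (adjusted p = 0.00836) went from 1.67 to 0.10, GSL-OH (adjusted p = 0.00128) from -2.92 to -0.45, COR47 (adjusted p = 0.021) from 1.20 to -0.27 and UFO (adjusted p = 0.0454) from 0.30 to 0.73, with 1.48 on day 5. For AT3G29970 the adjusted p was 0.0813 when Col day 7 replicate 2 was left out, 0.0775 for the array Ler day 7 replicate 1 and 0.139 with all 40 arrays in the fit. The COR47 call was lost under 6 of its 21 alternatives, all of them arrays of days 0, 5 or 7 left out singly, and the UFO call under 15. Groups of 2 arrays were too small for a test of single outlying arrays.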

How the results depend on the processing

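Of 2452 recomputed values of 91 gene differences, 2358 kept their direction and their side of the threshold, 64 kept the direction but lost the call, 28 gained one and 2 were reversed. The 2 were AT1G19960 (0.31, adjusted p = 0.0121) and AT2G20870 (-0.51, adjusted p = 0.00866), both without day 7, against -0.05 and 0.17 over all days, where neither was called. With a difference above 1 log2 unit required, 189 probe sets were higher and 437 lower, against 3960 and 5204. With any 1 array left out, 133 to 1214 interactions were called, and 3040 to 4875 probe sets on day 0, 2588 to 4766 on day 3, 2445 to 4576 on day 5 and 2485 to 4152 on day 7. The interaction calls of AT3G29970, COR47 and UFO were lost under at least 1 alternative. Whether the replicate numbers pair the arrays is not stated in the labels, and no pairing was assumed. With a replicate block, 3687 probe sets were higher and 4945 lower, and 289 interactions were called. Under this block the calls of AT5G22430 (adjusted p = 0.0897), TPS24 (adjusted p = 0.0590) and the UFO interaction (adjusted p = 0.0618) were lost. The causes of these changes were not tested. Signals near the background limit the size of a difference that can be read, and 2 arrays per group limit the single-day and interaction tests.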

Other observations

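The level of AT2G25510 varied between single arrays of the Landsberg background beyond the spread of most genes. Besides Ler day 0 replicate 1 (9.78), it read 10.99 on co-2 day 3 replicate 1, 10.28 on ft-2 day 0 replicate 1 and 7.95 on co-2 day 5 replicate 1, against 5.59, 5.41, 4.93 and 5.21 on the other array of each pair. On lfy-12 day 5 replicate 2, AOP3 read 6.17, where the other lfy-12 arrays read 4.19 to 4.72. Of these arrays, replicate 1 of co-2 at day 3, replicate 1 of ft-2 at day 0 and replicate 2 of lfy-12 at day 5 are those with transcripts of the other background (5.03%, 3.39% and 7.84%), while Ler day 0 replicate 1 (-0.0529%) and co-2 day 5 replicate 1 (0.213%) lay within the range of the rest. AT3G05730, chosen after its values were seen, ranged from 4.91 to 10.69 over the Ler arrays and from 6.53 to 9.91 over the Col arrays. Much of this range followed the days, with means from 9.58 on day 0 to 5.12 on day 7 in Ler and from 9.35 to 6.85 in Col. Its difference was -1.72 ± 0.41 over all days (limma adjusted p = 0.00303). On days 0, 3, 5 and 7 it was 0.22, -2.74, -2.63 and -1.73, not called on days 0 and 7 (limma adjusted p = 0.851 and 0.081).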
